A study of Mus musculus with 6 samples.

Results

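The respiratory complexes II to V of the inner mitochondrial membrane were examined in cochlear tissue (the cochlea is the part of the inner ear that senses sound) through the nuclear genes that encode their subunits. Members were all genes whose symbol starts with Sdh, Uqcr, Cox4, Cox5, Cox6, Cox7, Cox8 or Atp5, together with Cyc1 and Cycs. The muscle-type subunits Cox6a2, Cox7a1 and Cox8b and the Sdhaf assembly factors were left out. The rule gave 44 genes of the 12393 genes that had a probe set with 1 gene symbol, and these 44 genes were covered by 83 of 22626 probe sets. Each gene was measured by its brightest probe set over the 6 arrays. The members fell into 4 genes of complex II, 10 of complex III and cytochrome c, 13 of complex IV and 17 of complex V, the ATP synthase.

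Total RNA was isolated from the cochlea of male mice. Their strain, DBA/2J, is inbred and known for early-onset hearing loss. The mice were 7 weeks old in 1 group and 36 weeks old in the other, with 3 samples and 3 single-colour Affymetrix arrays per age. Strain and sex were the same in both groups, and the labels name no treatment. The labels do not say whether each sample came from 1 animal or from a pool, so p-values measure the spread between these samples. The design, set up to find genes associated with age-related hearing loss, compares the older samples with the younger ones.

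Complex II, succinate dehydrogenase, oxidises succinate and passes the electrons to ubiquinone. It also serves as an enzyme of the tricarboxylic acid cycle. Complex III hands electrons from ubiquinol to cytochrome c, complex IV passes them to oxygen, and the ATP synthase uses the resulting proton gradient to make ATP. The core subunits cytochrome b, COX1 to COX3 and ATP6 and ATP8 are encoded by mitochondrial DNA and were not among the members. In the cochlea, the stria vascularis, which pumps potassium into the endolymph, is known for its dense mitochondria and high energy demand.

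Median signals were 766 to 800 on the 7-week arrays and 844 to 859 on the 36-week arrays, without overlap. Log2 signals correlated at 0.954 to 0.957 between arrays of the same age and at 0.828 to 0.838 between ages. The lateral wall genes Otos and Coch, which mark cochlear fibrocytes, were bright at 7 weeks, with mean signals of 73912 and 82144. Of 10 tested fibrocyte genes 9 were lower at 36 weeks. The summed signal of the fibrocyte list went from a range of 304506 to 316294 to one of 96586.5 to 100255. Lists of genes of other cell types also differed greatly between the ages. All 29 measured skeletal muscle genes were lower at 36 weeks, with Tnni2 and Acta1, a fast troponin and skeletal actin, 3.85-fold and 3.15-fold lower. The summed signal of that list ran from 471937 to 497777 at 7 weeks and from 168857 to 175384 at 36 weeks. All 17 measured granulocyte genes were higher, led by S100a9 and Ltf, and their sum went from a range of 53092 to 57787 to one of 755452 to 803699. Of 13 tested cerebellar and brain genes 12 were higher and 0 lower, with Aldoc and Cbln1 at log2 differences of 1.73 and 2.54, and the sum of the list went from a range of 52248 to 55124 to one of 111590.4 to 116229.9. No gene of the muscle, granulocyte and brain lists had a signal of 0. The part of these shifts in the results below was not tested. Fewer cells of a type and less RNA per cell cannot be told apart in whole cochlear RNA.

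By the brightest probe set, most subunit transcripts of complex III and the ATP synthase were lower at 36 weeks, and those of complexes II and IV were mixed. That contrast depends in part on the choice of genes and probe sets. The complex IV members include the dim Cox4i2 and the testis forms Cox6b2 and Cox8c, none of which was lower. The higher call in complex II was for Sdhc, whose other probe set was lower. Of the 44 members, 43 were bright enough to be tested. The exception was Cox7c, whose brightest probe set had signals of 129 to 451, with no order between the ages. By limma with Benjamini-Hochberg adjustment over all tested probe sets, 29 members were lower at 36 weeks, 2 were higher and 12 did not pass an adjusted p of 0.05. Among all 13575 tested probe sets 34.4% passed that threshold, 17.7% as lower and 16.7% as higher. The median log2 difference (36 weeks minus 7 weeks, on the log2(signal + 50) scale, as for every log2 difference here) was -0.41 over the members and 0.02 over all tested probe sets. Members were bright, and 38 of them lay above the 90th percentile of mean signal. Of all 2263 probe sets above that percentile, 37.6% were lower and 21.9% higher, with a median of -0.12. Of the 38 members, 29 were lower and 1 was higher, with a median of -0.44.

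The arrays of the 2 ages did not overlap for 33 members, 30 of them with every 36-week array below every 7-week array. Among all tested probe sets 24.1% were of that lower kind and 23.8% were of the higher kind. By complex, 2 of 4 tested members of complex II were lower, 9 of 10 of complex III and cytochrome c, 6 of 12 of complex IV and 12 of 17 of the ATP synthase. The median log2 differences were -0.27, -0.45, -0.21 and -0.44 in that order. With quantile normalization that of complex IV was -0.067. The difference between complexes was not tested.

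**Figure D1:**
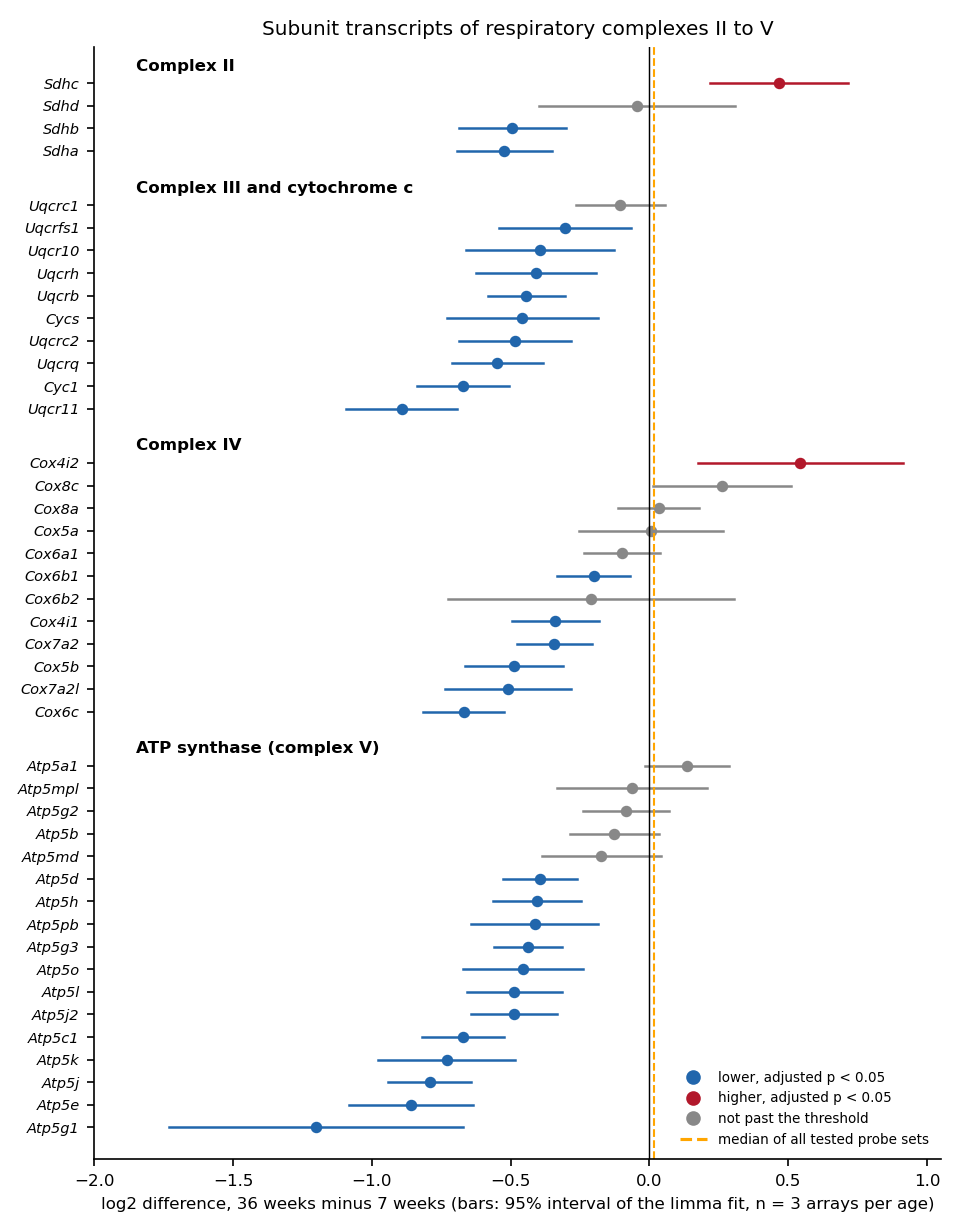
Log2 difference between 36 and 7 weeks for the 43 tested members by complex, with the 95% interval of the limma fit (n = 3 arrays per age). Blue marks members that were lower, red those that were higher and grey those not past the threshold, and the dashed line is the median of all tested probe sets, 0.02. The points run from -1.20 for Atp5g1 to 0.54 for Cox4i2, and 37 of the 43 lie below 0. Of all 13575 tested probe sets 6605 lie below 0.

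The plot of members on each array shows that the shift was shared by the 3 older arrays in complexes III and V. Relative to each gene's mean at 7 weeks, the median over complex III and cytochrome c was -0.50, -0.47 and -0.42 on the 36-week arrays, against -0.03, 0.04 and -0.02 on the 7-week arrays. For the ATP synthase the older arrays stood at -0.47, -0.44 and -0.47. Complex IV was less even, at -0.28, -0.09 and -0.25. Complex II stood at -0.35, -0.37 and -0.09, the last of which lay close to the 7-week values of -0.07, 0.09 and -0.06. The members' summed signal made up 1.66% to 1.76% of all signal on the young arrays and 1.31% to 1.35% on the old.

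**Figure D2:**
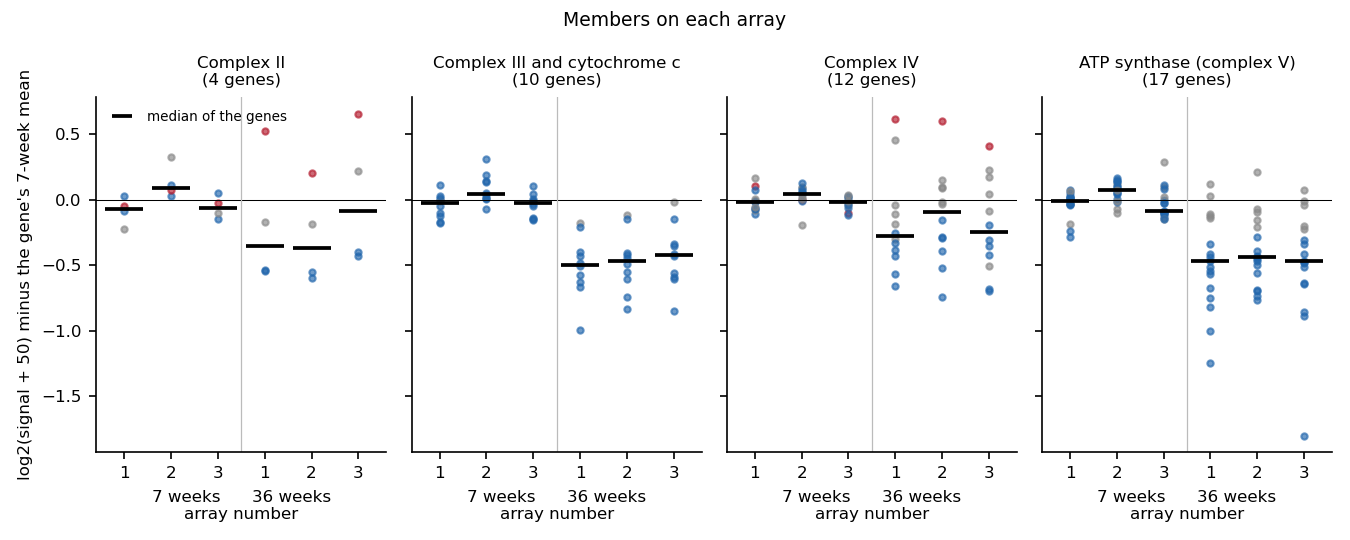
Every tested member on every array, as log2(signal + 50) minus the gene's mean at 7 weeks, in 1 panel per complex, with colours for lower (blue), higher (red) and not past (grey). Black bars are medians over the genes of the panel, and those of complex III and cytochrome c lie between -0.50 and -0.42 on the 3 arrays of 36 weeks.

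In complex II both catalytic subunits fell, and of the membrane anchors 1 was called higher and 1 did not pass. Sdha is the flavoprotein that oxidises succinate, and its signal was 11569, 12539 and 12708 at 7 weeks and 8387, 8095 and 9104 at 36 weeks. The ages did not overlap, and the log2 difference was -0.52 ± 0.08 (SE, n = 3 arrays per age, limma adjusted p of 0.000463). Sdhb carries the iron-sulfur clusters that pass the electrons on. It had signals of 11560.3, 12199.5 and 10227 at 7 weeks and 7760.5, 7708 and 8568 at 36 weeks. It too fell without overlap, by 0.49 ± 0.09 (adjusted p of 0.00145).

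Sdhc and Sdhd anchor the enzyme in the membrane and bind ubiquinone. Sdhc had signals of 5826, 6349 and 5945 in the young and 8733, 6982 and 9564 in the old cochlea. All old arrays were above all young ones, with a log2 difference of 0.47 ± 0.11 and an adjusted p of 0.00898. This brightest probe set of Sdhc is of the _x_at kind, which can bind related transcripts. The other Sdhc probe set moved the opposite way, by -0.32 ± 0.09 (adjusted p of 0.0166), so the direction for Sdhc depends on the probe set. Sdhd had signals of 2943, 4325 and 3201 at 7 weeks and 3056, 3021 and 4021 at 36 weeks. The ages overlapped, and the difference of -0.04 had an interval from -0.40 to 0.31. A second, dimmer probe set of Sdha did not pass (-0.19 ± 0.15). Without array 2 of 7 weeks the complex II median was -0.16 in place of -0.27. Without _x_at and _s_at probe sets it was -0.49 over the remaining genes.

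In complex III with cytochrome c, 10 of 10 members were below 0 and 9 passed the threshold. Of all 13575 tested probe sets 6605 were below 0 and 17.7% passed as lower. Of the 2263 probe sets above the 90th percentile of mean signal, 1387 were below 0 and 37.6% passed as lower. Uqcrc1 and Uqcrc2 are the core proteins that face the matrix. Uqcrc1 had signals of 10293, 10447 and 10266 at 7 weeks and 9123, 9518 and 10217 at 36 weeks. Its old arrays were all below the young ones by a narrow margin, and the difference of -0.10 (interval -0.27 to 0.06) did not pass. Uqcrc2 had signals of 9413, 10326 and 11041 against 6618, 7725 and 7608. It fell without overlap by 0.49 ± 0.09 (adjusted p of 0.00217), and its second probe set fell by 0.86 ± 0.11.

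The electron carriers of the complex were lower as well. Uqcrfs1, the Rieske iron-sulfur protein, had signals of 8400.1, 8905 and 8739.6 in the young and 7525, 7817 and 5876 in the old cochlea. It passed narrowly, with a log2 difference of -0.30 ± 0.11 and an adjusted p of 0.0494. Without array 3 of 36 weeks its difference was -0.18 with an adjusted p of 0.159, and it passed in only 1 of the 6 fits that each left out an array. Cyc1, cytochrome c1, stood at 19574, 17242 and 17475 at 7 weeks and at 11338, 10794 and 11854 at 36 weeks. The groups were far apart, with a fall of 0.67 ± 0.08 (adjusted p of 6.89e-05), that is 1.60-fold.

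Cycs, the somatic cytochrome c that shuttles electrons to complex IV and also triggers apoptosis when released, had signals of 14031, 19625 and 14223 at 7 weeks. At 36 weeks they were 10563, 11571 and 12310.5. Array 2 of 7 weeks was the highest, and the ages did not overlap, with a difference of -0.46 ± 0.12 (adjusted p of 0.0151). Without that array the difference was -0.30 and still past the threshold (adjusted p of 0.0294), and without array 1 of 36 weeks the adjusted p was 0.0540. Without the intensity trend it was 0.0684. The 2 other probe sets of Cycs were also lower, by 0.52 ± 0.08 and 0.89 ± 0.10.

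The small subunits of complex III, which surround its catalytic core, contained the strongest change. Uqcr11 went from 10537, 11556 and 9582 to 5271, 5878 and 5812, the lowest log2 difference of the complex at -0.89 ± 0.09 (adjusted p of 3.43e-05). Its highest old array lay far below its lowest young one. Uqcrq, Uqcrb, Uqcrh and Uqcr10 fell by 0.55, 0.44, 0.41 and 0.39, with adjusted p-values of 0.000248 to 0.0282. Uqcr10 alone of the 9 lower genes of the complex had overlapping arrays. It did not pass in 4 of the 6 fits that each left out an array, with adjusted p-values of 0.0666, 0.0730, 0.104 and 0.105. The brightest Uqcrq probe set is of the _s_at kind, which can bind related transcripts. The 3 dimmer Uqcrq probe sets are not of that kind, and each had a higher mean at 36 weeks. Of these 2 were tested, and 1 was higher (0.70 ± 0.22, adjusted p of 0.0328) while the other did not pass (0.39 ± 0.27). The direction for Uqcrq thus depends on the probe set.

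Complex IV was mixed. Subunit 4 takes part in the assembly and regulation of the enzyme, and Cox4i1 encodes its common form while Cox4i2 encodes a form known from lung and from hypoxic cells. Cox4i1 had signals of 32174, 36857 and 35078 in the young and 25749.7, 28435 and 28022 in the old cochlea. It fell without overlap by 0.34 ± 0.07 (adjusted p of 0.00391). With quantile normalization its difference was -0.14 and did not pass (limma adjusted p of 0.0991), and without the intensity trend the adjusted p was 0.0532. Cox4i2 was dim, with signals of 893, 824 and 767 at 7 weeks and 1296, 1279.5 and 1117 at 36 weeks. It rose without overlap, by 0.54 ± 0.17 (adjusted p of 0.0280). It did not pass without the filter on dim probe sets (0.0535), in 4 of the 6 fits that each left out an array (adjusted p of 0.0603 to 0.0865), with quantile normalization (0.0524) or with centring on the array median (0.0619).

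The subunits Cox5a and Cox5b lie against the catalytic core. Cox5a had signals of 26029.6, 29382 and 26953 at 7 weeks and 22296, 29183 and 32064 at 36 weeks, which overlapped widely. Its difference of 0.01 had an interval from -0.25 to 0.26. Both other Cox5a probe sets were lower, by 0.39 ± 0.08 and 0.73 ± 0.10 (adjusted p of 0.00430 and 0.000337), so for this gene the brightest probe set stands apart. Cox5b stood at 35689.8, 33640.1 and 32499 in the young and at 21476, 25909.8 and 25321 in the old cochlea. It fell without overlap by 0.49 ± 0.08. Of its 4 other tested probe sets 2 were lower, 1 did not pass and 1 dim probe set was higher (1.46 ± 0.47). The brightest probe set and the 2 other lower ones are of the _x_at kind, which can bind related transcripts. The one that did not pass (-0.06 ± 0.15) and the higher one are not of that kind. With the mean of all tested probe sets the Cox5b difference was -0.04 (limma adjusted p of 0.758).

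Among the remaining subunits of complex IV, Cox6c had the lowest difference. Cox6c, a small transmembrane subunit, had signals of 42645, 46159 and 45599.9 at 7 weeks and 30156, 26749 and 27653 at 36 weeks. The fall was 0.67 ± 0.07 with no overlap (adjusted p of 2.74e-05). Cox7a2 went from 41200.4, 45475 and 42754 to 32991, 35177 and 33777, a fall of 0.34 ± 0.06. Cox7a2l, related to Cox7a2 and known for joining complexes III and IV into supercomplexes, went from 10818, 11916 and 10080.3 to 8680.5, 7582 and 6784. It fell by 0.51 ± 0.10 (adjusted p of 0.00317), and both of its other probe sets were lower too.

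Cox6b1, which caps the enzyme on the side of cytochrome c, fell by 0.20 ± 0.06 (adjusted p of 0.0238), the smallest difference among the lower members. With quantile normalization that difference was 0.0033. It did not pass without the filter (0.0725), without the intensity trend (0.165) and in 3 of the 6 fits that each left out an array, with limma adjusted p-values of 0.0645 to 0.0763. Cox6b2 and Cox8c, known as testis forms, had differences of -0.21 ± 0.23 and 0.26 ± 0.11 and did not pass.

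Cox6a1 and Cox8a, the common forms of 2 subunits whose muscle forms had been left out of the members, showed little difference. Cox6a1 had signals of 37319.6, 38925 and 36589 at 7 weeks and 33147, 36816 and 35494 at 36 weeks. The ages overlapped slightly, and the difference of -0.10 had an interval from -0.24 to 0.04. Cox8a had signals of 18233, 19291 and 19444 against 18433, 20327 and 19575, with an interval from -0.11 to 0.18. The second tested probe set of each gene did not pass either (-0.11 and -0.08). The sign of both depends on the scaling: with quantile normalization Cox6a1 was at 0.11 and Cox8a at 0.24, the latter past the threshold, and with centring on the array median Cox8a was at -0.07.

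The muscle forms of the same subunits fell far more on the same arrays. Cox6a2, the heart and muscle form of subunit 6a, went from 8678, 9659 and 7859.7 to 3189, 2809.9 and 3023. Cox7a1, the counterpart of Cox7a2, went from 2729, 2992.5 and 2656 to 576, 875 and 821. Cox8b, the counterpart of Cox8a, went from 9806, 9508 and 7051 to 2630.4, 2783 and 3392. Each muscle form fell without overlap, by 1.52 ± 0.10, 1.83 ± 0.17 and 1.56 ± 0.14. Within each array the log2 ratio of the muscle form to the common form was lower at 36 weeks by 1.42 for Cox6a2 over Cox6a1, by 1.49 for Cox7a1 over Cox7a2 and by 1.59 for Cox8b over Cox8a. The ages did not overlap in any of these ratios. The exact permutation test (two-sided) gave a p of 0.1 for each, the smallest that 3 arrays against 3 allow, and 0.11 after adjustment over the 11 ratios computed, which were chosen after the values had been seen. For the Cox4i2 over Cox4i1 ratio, which was higher by 0.88, the test gave the same p.

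**Figure D3:**
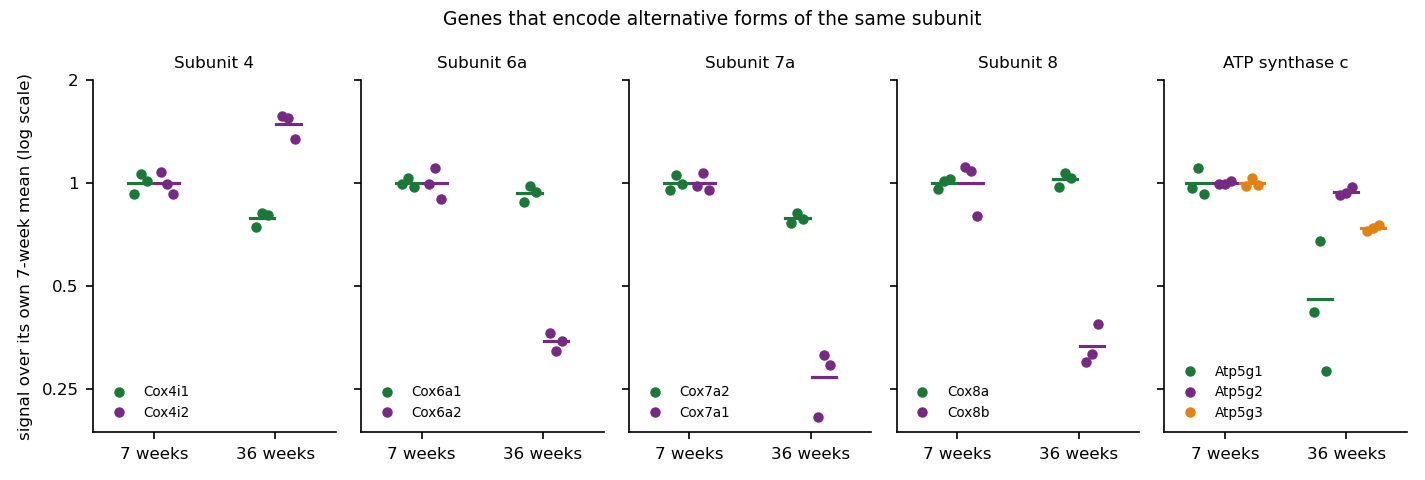
Signal of genes that encode alternative forms of a subunit, each divided by its own mean at 7 weeks (log axis), with 1 point per array and bars for the mean of each age. Colours follow the order of genes within a panel, so purple marks Cox4i2 and Atp5g2 as well as the muscle forms. The muscle forms Cox6a2, Cox7a1 and Cox8b stand at 0.344, 0.271 and 0.334 of their 7-week mean at 36 weeks, and Atp5g1, Atp5g2 and Atp5g3 at 0.459, 0.943 and 0.738.

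In the ATP synthase the subunits of both stalks fell, and the brightest probe sets of the alpha and beta subunits did not pass. Atp5a1 and Atp5b encode the alpha and beta subunits, which form the hexamer that makes ATP. The brightest Atp5a1 probe set had signals of 25899, 25229 and 28269 at 7 weeks and 28786, 30685 and 27780.1 at 36 weeks. Its difference of 0.14 had an interval from -0.01 to 0.29 and did not pass. With quantile normalization it was 0.32 and past the threshold (adjusted p of 0.00922). Both other Atp5a1 probe sets were lower, by 0.61 ± 0.07 and 1.29 ± 0.27, so the probe sets of this gene disagree. Atp5b had signals of 26780.1, 29426 and 25135 against 25036, 25753 and 23600.4, which overlapped. Its difference of -0.13 (interval -0.29 to 0.03) did not pass and was 0.05 with quantile normalization.

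The central stalk of the F1 head turns with the rotor, and all 3 of its subunits were lower. Atp5c1, the gamma subunit, went from 22107, 21067 and 19816 to 13098, 12955 and 13405. It fell by 0.67 ± 0.07 with no overlap (adjusted p of 2.93e-05). Atp5d, the delta subunit, went from 26381, 25564 and 25840.0 to 19452, 19226 and 20546, a fall of 0.39 ± 0.06. Atp5e, the epsilon subunit, went from 9975, 10500.5 and 8903 to 4856, 6032 and 5262, a fall of 0.86 ± 0.10 (adjusted p of 9.44e-05). The brightest probe sets of these 3 genes are of the _s_at kind, which can bind related transcripts, and the second probe sets of Atp5c1 and Atp5d did not pass (-0.76 ± 0.53 and -0.12 ± 0.12).

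The peripheral stalk holds the head still against the rotor, and the brightest probe sets of its 4 members were lower. Atp5o, the oligomycin sensitivity protein, went from 14991, 16314 and 13402 to 9992, 12181 and 10397. It fell by 0.46 ± 0.10 with no overlap (adjusted p of 0.00458). Atp5j, coupling factor 6, fell by 0.79 ± 0.07 (adjusted p of 9.53e-06), the smallest p of all members. Atp5h, subunit d, and Atp5pb, subunit b, fell by 0.40 ± 0.07 and 0.41 ± 0.10. The second Atp5pb probe set did not pass (-0.20 ± 0.09), and without the intensity trend the first did not either (limma adjusted p of 0.0599). Of the accessory subunits of the membrane part, Atp5k, Atp5l and Atp5j2 fell by 0.73, 0.49 and 0.49. Atp5md and Atp5mpl, small proteins tied to the dimer of the enzyme, had differences of -0.17 ± 0.10 and -0.06 ± 0.12 and did not pass, and with quantile normalization that of Atp5mpl was 0.04.

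The c subunit forms the rotor ring of the ATP synthase and is encoded by 3 genes, whose proteins are known to differ in the targeting peptide that is cut off and to give the same mature subunit. These genes differed widely in the old cochlea. Atp5g1 had signals of 10107, 11504 and 9677 at 7 weeks and 4365, 7047 and 2948 at 36 weeks. The old arrays were all lower and spread widely, and the log2 difference of -1.20 ± 0.24 (adjusted p of 0.00310) was the lowest of all members. It ranged from -1.52 to -0.90 when each array was left out. Atp5g3 had signals of 52972, 55992 and 53185 against 39128, 39915 and 40633. It fell by 0.44 ± 0.05 with no overlap (adjusted p of 0.000145). Atp5g2 had signals of 8971, 8941 and 9146 against 8296, 8445 and 8785. Its old arrays lay just below the young ones, and its difference of -0.08 (interval -0.24 to 0.07) did not pass and was 0.011 with quantile normalization.

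Within each array, the log2 ratio of Atp5g1 to Atp5g2 was lower at 36 weeks by 1.12, with an SD of 0.14 at 7 weeks and 0.65 at 36 weeks. That of Atp5g2 to Atp5g3 was higher by 0.35, with SDs of 0.06 and 0.02. Neither ratio overlapped between the ages, and the exact permutation p was 0.1 for both, the smallest possible.

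Because the 3 genes give the same mature product and differed in their change, the 250 bases before each start site are shown, from RefSeq on build GRCm38.p6, all on the minus strand and read 5′ to 3′. They lie at chr11:96075632-96075881 for Atp5g1, chr15:102671048-102671297 for Atp5g2 and chr2:73911327-73911576 for Atp5g3. Capitals mark a match, on either strand, to the core of the motif of NRF1 (a known activator of respiratory genes, with any base at 1 middle position), CCGGAAGT (ETS), the YY1 motif, TGACGTCA (CRE) or TCAAGGTCA (the estrogen-related receptors).
Atp5g1: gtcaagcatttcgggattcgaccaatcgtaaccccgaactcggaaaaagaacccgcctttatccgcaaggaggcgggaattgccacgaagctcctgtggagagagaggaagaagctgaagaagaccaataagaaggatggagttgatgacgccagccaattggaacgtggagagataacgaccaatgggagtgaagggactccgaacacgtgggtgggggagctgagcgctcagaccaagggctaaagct
Atp5g2: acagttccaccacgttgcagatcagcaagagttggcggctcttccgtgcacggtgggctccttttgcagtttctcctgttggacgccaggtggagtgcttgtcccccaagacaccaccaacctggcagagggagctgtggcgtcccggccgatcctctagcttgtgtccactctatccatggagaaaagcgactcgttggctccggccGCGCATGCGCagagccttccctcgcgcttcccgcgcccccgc
Atp5g3: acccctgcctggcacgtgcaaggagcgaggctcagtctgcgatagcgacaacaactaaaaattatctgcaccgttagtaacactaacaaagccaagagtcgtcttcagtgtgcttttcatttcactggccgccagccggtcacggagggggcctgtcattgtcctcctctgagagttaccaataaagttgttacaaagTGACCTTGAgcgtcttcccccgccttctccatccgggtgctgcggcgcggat
Atp5g2 holds an NRF1 core 42 bases before the start. Atp5g3 holds the receptor motif 52 bases before its start. It also holds an NRF1 core that begins at base 12 after the start, outside the printed stretch. Atp5g1 holds none of the 5 in its RefSeq window. A match describes the letters alone, and its relation to the change of a gene was not tested.

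Sdha, one of the lower members, held 3 NRF1 cores within the 98 bases before its start and is shown for that reason, at chr13:74350241-74350490 on the minus strand.
Sdha: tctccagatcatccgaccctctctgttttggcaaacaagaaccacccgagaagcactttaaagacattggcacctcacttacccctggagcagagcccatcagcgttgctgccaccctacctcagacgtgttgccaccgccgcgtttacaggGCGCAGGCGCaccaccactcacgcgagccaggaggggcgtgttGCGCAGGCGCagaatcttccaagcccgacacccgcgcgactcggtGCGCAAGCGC
RefSeq windows of 250 bases before to 50 after the start were at hand for 33 of the 44 members. The NRF1 core was found in 10 of these 33 genes (30.3%), against 5.19% of all 27025 genes with a window. The members with it were Atp5c1, Atp5g2, Atp5g3, Atp5h, Atp5k, Atp5o, Cox6a1, Sdha, Sdhd and Uqcrc1. Of these 10, 6 were among the 23 lower members with a window and 4 among the 10 other members with a window. The ETS motif was in 4 members (12.1%, against 4.31% of all genes), the CRE and the receptor motif in 2 each (against 2.03% and 0.466%), and the YY1 motif in 0 (against 0.755%). GGGCGG, the GC box, was in 14 members, or 42.4%, against 38.2%.

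Several members could be checked against further probe sets. Of 23 members with at least 2 tested probe sets, all probe sets were lower for 11, none passed for 2 (Cox6a1 and Cox8a), and the call differed between probe sets for 10. Probe sets of the same gene were called in opposite directions for 3 genes, Sdhc, Cox5b and Uqcrq. The 11 genes were Cycs, Uqcrb, Uqcrc2, Cox6b1, Cox6c, Cox7a2, Cox7a2l, Atp5h, Atp5j2, Atp5k and Atp5o. At least 1 probe set was lower for 32 of the 43 tested members and at least 1 was higher for 4. A gene with more probe sets has more chances to be counted in this way. The matching share over all genes was not computed. Per probe set, 17.7% of all tested probe sets were lower and 16.7% higher.

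**Figure D4:**
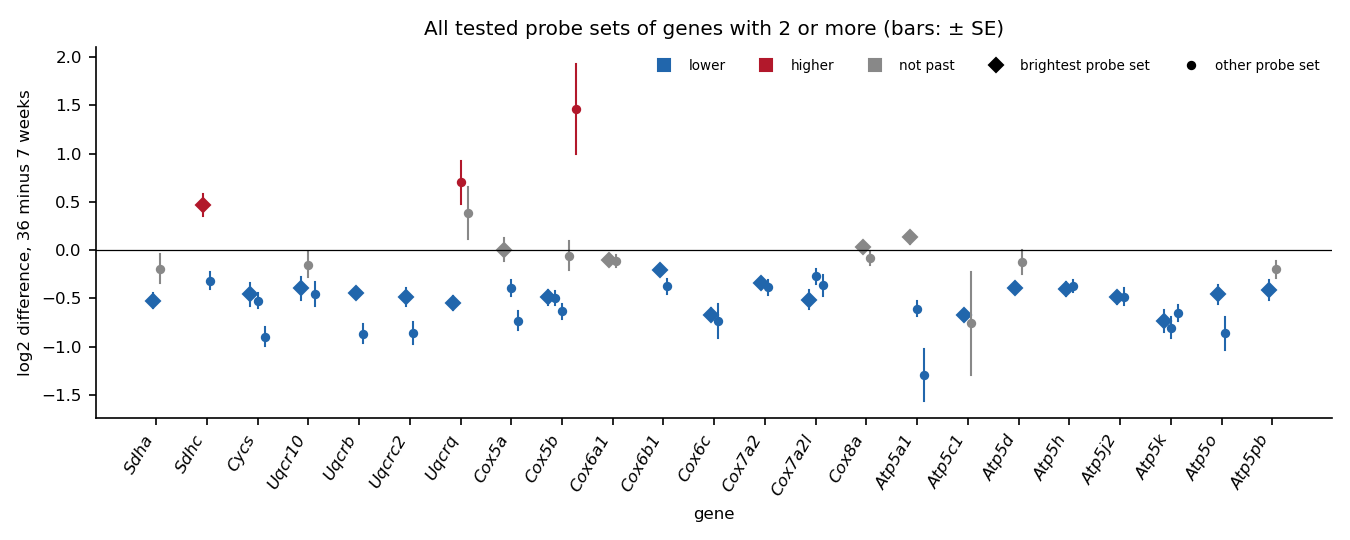
Log2 difference between 36 and 7 weeks (± SE) of every tested probe set of the 23 members with 2 or more. Diamonds are the brightest probe set of a gene, circles are the others, and colours give the call. For Atp5a1 and Cox5a the brightest probe set lies near 0 (0.14 and 0.01) and the others lie below it, while for Sdhc the brightest lies at 0.47 and the other at -0.32.

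Of 7 measured genes for proteins that work with the ATP synthase, 5 were lower and 0 higher, with a median of -0.62. The shares over all tested probe sets were 17.7% lower and 16.7% higher. Slc25a4, the ADP/ATP carrier that is abundant in muscle, fell by 0.81 ± 0.07 and Slc25a3, the phosphate carrier, by 0.62 ± 0.06. Atpif1, the inhibitor of the enzyme, fell by 0.82 ± 0.11. Slc25a5, the widely expressed ADP/ATP carrier, had a difference of -0.17 ± 0.10 and did not pass. Atpif1 and Slc25a5 were named after their values had been seen.

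Among assembly factors of complexes II to V, 7 of 26 tested genes (26.9%) were lower, 0 were higher and 19 did not pass. Their median was -0.22, and of all tested probe sets 17.7% were lower and 16.7% higher. Higd1a, which binds complex IV, fell by 1.10 ± 0.16 and Pet100, needed to build that complex, by 0.51 ± 0.10. Of 17 tested regulators of respiratory genes and mitochondrial DNA, 12 did not pass, 2 were lower and 3 higher, with a median of -0.03, shares near the 17.7% lower and 16.7% higher of all tested probe sets. Ppargc1a, a coactivator of mitochondrial biogenesis, fell by 0.76 ± 0.13 (adjusted p of 0.00155), and its relative Ppargc1b rose by 0.73 ± 0.12 (adjusted p of 0.000895). General mitochondrial genes were also mixed, 6 of 14 lower (42.9%) and 2 higher with a median of -0.28. They were led by Vdac1, the outer membrane channel, at -0.84 ± 0.15, and Timm23, of protein import, at -0.47 ± 0.09. Vdac1 was also counted among the proteins that work with the ATP synthase.

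For complex I, the entry point of electrons from NADH, 26 of 39 genes with a symbol starting with Nduf were lower and 0 higher, and the median was -0.37. Its leading genes Ndufb9 and Ndufa13 fell by 0.87 ± 0.07 and 0.79 ± 0.08. Skeletal muscle genes stood at a median of -1.70 on the same arrays, fibrocyte genes at -1.90 (9 of 10 lower) and stria vascularis genes at -1.41 (9 of 12 lower, with Slc26a4 and Dct at -2.28 and -2.10). Of 12 hair cell genes 5 were too dim to be tested. Of the 7 tested, 3 were lower, 0 were higher and 4 did not pass, with a median of -0.08. Their differences ran from -1.14 to 0.57, and Calb2 and Myo6, with the smallest p-values, stood at -1.14 and -0.92. Mucus-secreting epithelium genes had 7 of 11 higher and 2 lower, with Tff2 and Muc5b at 4.52 and 4.18. Brown adipocyte genes, from a tissue rich in mitochondria, had 3 of 7 higher and 2 lower, with Ucp1 at 4.25 from a dim 165 and Cox8b at -1.56. Of 3 tested erythroid genes 1 was lower, Slc4a1 at -1.89, and Alas2 did not pass at 0.24. Beside the counts of this paragraph stand the 17.7% lower and 16.7% higher of all tested probe sets. Some genes are in more than 1 list, such as Slc12a2 and Atp1b2 (fibrocyte and stria vascularis), so the lists are not independent.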

How the data were processed

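The authors deposited intensity values, linear single-colour probe-set signals from 6 Affymetrix arrays of biotin-labelled cRNA, per the labels' protocols. Which software summarised the probes was not given in the sources used here. All arrays share a trimmed mean of 1489.8 to 1492.5, with both 2% tails left out, so signals are relative and their absolute scale is unknown. Of 22626 probe sets, 20380 had 1 gene symbol in the platform annotation, 691 several and 1555 none. All 44 member symbols matched RefSeq (GRCm38.p6).

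The analysis scale was log2(signal + 50), on which changes of dim probe sets are understated. The 13575 probe sets with a mean above the 40th percentile (594) were fitted with limma 3.58.1 in R 4.3.3 (lmFit, eBayes with intensity trend), 36 against 7 weeks, unpaired and two-sided, with Benjamini-Hochberg adjustment. Checked on simulated data, with 200 of 13575 probe sets changed, the fit recovered 91% of changes of 1 and 40% of 0.5, with 8 false calls in 135. In the data 34.4% of probe sets were called, which makes the adjustment less strict. These rates therefore describe the simulated setting only. Same-numbered arrays showed little shared deviation (correlations of 0.05, -0.01 and -0.002), and samples were treated as unpaired. Such correlations cannot exclude a pairing with a weak effect.

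Members and lists were chosen with earlier results of these data known. Named genes were all members, with values on every array for members of set roles, for those called against the majority and for the lowest of each complex, and the 2 smallest p-values of each other list, with the exceptions Atpif1 and Slc25a5. Alternatives were the offset, the filter, the normalization, the trend, the choice of probe sets, the replicate block and each array left out. Background shares above the 90th percentile and the within-array ratios were added after seeing the data. Python 3.11.15 and matplotlib 3.10.9 drew the figures.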

Additional observations from a re-analysis of the deposited data

How the results depend on the processing

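Of the 29 members that were lower, 21 kept that call under every alternative fitted to all members or to the mean of their probe sets, and the exceptions were Cycs, Uqcr10, Uqcrfs1, Uqcrq, Cox4i1, Cox5b, Cox6b1 and Atp5pb. The lower count was 25 to 28 with each array left out in turn, 28 with offsets of 1 or 16, 25 with quantile normalization, 21 of 34 members without _x_at and _s_at probe sets (an alternative that drops 10 members, Atp5c1, Atp5d, Atp5e, Atp5j2 and Atp5k among them), 26 without a filter, 23 without the intensity trend and 27 with the replicate block, which the numbers do not support as a pairing. The higher count, 2, was 3 with quantile normalization, 1 with centring on the array median, without a filter, with the filter at the 60th percentile, without _x_at and _s_at probe sets and with the mean of all tested probe sets of a gene, and 1 to 2 with an array left out. The medians of complex III, IV and V were -0.33, -0.067 and -0.33 with quantile normalization and -0.55, -0.31 and -0.54 with centring. The median of complex II was -0.49 without _x_at and _s_at probe sets. That of complex III was -0.52 with the mean of probe sets and -0.52 to -0.37 with an array left out. Signs turned with quantile normalization for Cox6a1 (0.11), Cox6b1 (0.0033), Atp5b (0.049), Atp5g2 (0.011) and Atp5mpl (0.036), with centring for Cox5a (-0.096) and Cox8a (-0.069), and with the mean of probe sets for Uqcrq (0.18), Cox5a (-0.37), Cox8a (-0.023) and Atp5a1 (-0.59). With an array left out, Cox5a ranged from -0.10 to 0.16, Sdhd from -0.18 to 0.12 and Atp5mpl from -0.16 to 0.081. The cause of these moves was not tested. Centring moved the median of all probe sets from 0.02 to -0.08 and the higher share of all calls from 48.6% to 36.0%. The 3 arrays per age limit what can be told apart.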
